A study of Mus musculus with 36 samples.

Results

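The question was which loci of cortical neuron chromatin were more open after 6 h of brain-derived neurotrophic factor (BDNF) than after 6 h of potassium chloride (KCl), and which were more open after KCl. The comparison rests on 4 of the 36 libraries of the series, chosen by their labels: 2 assays for transposase-accessible chromatin (ATAC) of neurons given BDNF for 6 h and 2 of neurons given KCl for 6 h. ATAC-seq counts insertions of a transposase, which enters open chromatin more readily than closed chromatin. The 18 ATAC libraries of the series hold 2 of each stimulus at 1 h, 6 h and 10 h and 6 controls, and as many RNA libraries were made. The neurons were primary cells from the cortex of CD-1 mouse embryos at embryonic day 15, pooled before plating and kept 7 days in vitro. All groups had first spent 2 h in AP-5 at 100 µM, which blocks NMDA receptors, plus TTX at 1 µM, which blocks sodium channels, to silence activity. The stimulated cultures then received BDNF at 10 ng/ml or KCl at 55 mM, and the controls stayed in AP-5 and TTX for 1, 6 or 10 h more. The KCl buffer was added directly to the medium, and the paper's methods describe no removal of AP-5 and TTX from stimulated cultures. The 2 libraries of a group are called A and B here after their order among the deposited columns, and the letters pair nothing between groups. The paper calls the 2 libraries of a group biological replicates. Since cultures came from pooled tissue, p-values measure the spread between these libraries, which may be technical in part.

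BDNF is a secreted protein that binds the receptor tyrosine kinase TrkB and switches on the MAP kinase cascade, while a high concentration of KCl depolarises the membrane and lets calcium enter through voltage-gated channels. Both routes induce immediate early genes in neurons, among them the FOS and JUN proteins that pair to form AP-1, a factor that binds the letters TGAGTCA and often sits at enhancers. Calcium entry also acts through calcineurin and kinases on the MEF2 factors, which bind an A and T rich site, and on CREB and SRF, which bind the CRE and the CArG box.

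Of 56383 peaks tested, 1214 were more open with BDNF and 814 were more open with KCl at 6 h (edgeR's quasi-likelihood test, adjusted p below 0.1). These are 2.15% and 1.44% of the peaks tested. Both BDNF libraries lay above both KCl libraries at all 1214 peaks of the first set, and the reverse held at 812 of the 814 peaks of the second. The same 4 libraries gave the calls, so this separation is no separate evidence for them. Libraries were separated in one direction or the other at 25582 of all 56383 peaks tested and at 23556 of the 54355 not called. The median log2 fold change, BDNF over KCl, was 1.50 in the first set (range 0.32 to 4.14) and -1.36 in the second (range -3.89 to -0.28), against -0.01 over all peaks tested. The control levels of the 2 sets also differed: the median of the mean scaled count in the 6 controls was 19.0 in the BDNF set and 30.5 in the KCl set. Peaks low in the controls could enter a set only where stimulated libraries were higher, so the choice of peaks sets part of this gap. The BDNF set also mixes groups of unlike control level, described below. Scaled counts are the deposited counts after a LOESS correction that puts the 18 libraries on 1 scale, and are given for all peaks below. In bulk chromatin, fewer cells with an open locus and a lower openness per cell cannot be told apart.

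The 4 libraries differed in depth. The BDNF libraries A and B held 3594096 and 5827363 counts in peaks and KCl library A held 4208446, but KCl library B held only 1241829, the lowest of all 18. In that library 4.48% of peaks were at the table's minimum of 1 count, against 0.504% to 0.779% in the other 3. Without it 602 peaks were called, 346 of the 1214 and 207 of the 814 among them, and without KCl library A 962 were called. Leaving out BDNF library A left 395 and leaving out BDNF library B 806, and the medians of the 2 sets stayed between 1.42 and 1.68 and between -1.36 and -1.22 in these 4 fits. With every library thinned to the total of KCl library B, 670 of the 1214 peaks and 465 of the 814 still passed the filter on low counts, and 20 and 10 of them were called. Over those peaks the medians were 1.0 and -0.85, against 1.06 and -0.91 for the same peaks before thinning, and 8 and 1 of them had the opposite sign. Counts between the libraries of a group differed by more than sampling noise (chi-square per degree of freedom of 2.26 for BDNF and 2.07 for KCl), so each was kept as a separate library.

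The first sequences show an AP-1 site and a MEF2 site, motifs whose shares differed between the sets, at the locus of lowest p on each side that holds the motif and has no near-identical copy elsewhere in the genome. They are given 5′ to 3′ on the plus strand of mm10 (GRCm38), 300 bases around the peak's centre, with AP-1 sites (TGAGTCA or its complement) in capitals for the locus near Trip12 and the MEF2 site in capitals for the locus near Hs3st5. The first is chr1:84881503-84881802, more open with BDNF, and the second is chr10:36557780-36558079, more open with KCl.
Trip12 locus: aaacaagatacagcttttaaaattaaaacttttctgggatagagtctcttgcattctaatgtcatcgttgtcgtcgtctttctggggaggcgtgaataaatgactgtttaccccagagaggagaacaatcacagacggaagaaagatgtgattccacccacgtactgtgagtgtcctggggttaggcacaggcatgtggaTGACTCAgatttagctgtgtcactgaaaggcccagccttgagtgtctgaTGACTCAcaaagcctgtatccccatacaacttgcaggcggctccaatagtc
Hs3st5 locus: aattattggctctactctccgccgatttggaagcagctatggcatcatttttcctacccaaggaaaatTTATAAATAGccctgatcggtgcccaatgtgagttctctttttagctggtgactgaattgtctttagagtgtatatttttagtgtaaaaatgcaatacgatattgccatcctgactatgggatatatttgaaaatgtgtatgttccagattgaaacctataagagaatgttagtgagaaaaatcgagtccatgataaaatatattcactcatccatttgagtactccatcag

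The locus near Trip12, a gene for a ubiquitin ligase, had scaled counts of 138 and 121 in the 2 BDNF libraries, 7.89 and 8.08 in the 2 KCl libraries and 4.57 to 13.1 (median 10.5) in the controls. The BDNF libraries were far above the other 8, and the KCl libraries lay inside the range of the controls. The log2 fold change was 4.01 ± 0.41 (SE; 16.1-fold; adjusted p = 6.33e-13), the lowest p of the BDNF set. The peak, chr1:84881422-84881885, lies in an intron of Fbxo36, 41.1 kb upstream of the start of Trip12, and its window holds 2 AP-1 sites and also matched the MEF2 motif. The RNA of Trip12 did not pass the test (log2 fold change -0.09 ± 0.07, adjusted p = 0.328, limma).

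The locus in an intron of Hs3st5, which encodes a sulfotransferase that modifies heparan sulfate, had scaled counts of 37.9 and 32.7 in the KCl libraries, 1.73 and 2.70 in the BDNF libraries and 2.88 to 12.2 (median 9.54) in the controls. Both KCl libraries stood above every control, and both BDNF libraries stood below the lowest control. The raw counts were 53 and 12 with KCl and 2 and 5 with BDNF, so the difference rests on few reads. The log2 fold change, BDNF over KCl, was -3.89 ± 0.67 (14.9-fold; adjusted p = 8.74e-05), the lowest value in the table. The RNA of Hs3st5 was also higher with KCl (-0.59 ± 0.18, adjusted p = 0.00931), with normalised counts of 143.5 and 138.9 against 91.9 and 95.2.

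AP-1 sites at other loci more open with BDNF are shown with 20 bases on either side, for the next loci by p that hold the motif and have no near-identical copy, again from mm10 and the plus strand, with the sites in capitals. They lie at chr7:108968404-108968450, chr2:11429808-11429854, chr1:8063719-8063765, chr6:55152443-55152489 and chr3:51195522-51195568.
Tub locus: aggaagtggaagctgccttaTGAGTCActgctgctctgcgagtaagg
Pfkfb3 locus: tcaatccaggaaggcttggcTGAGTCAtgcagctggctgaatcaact
Sntg1 locus: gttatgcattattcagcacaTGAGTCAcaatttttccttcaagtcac
Crhr2 locus: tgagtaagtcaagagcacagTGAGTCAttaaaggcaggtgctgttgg
Noct locus: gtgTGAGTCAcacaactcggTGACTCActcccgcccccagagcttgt

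MEF2 sites at loci more open with KCl are shown in the same way, with the site in capitals. They lie at chr6:4397671-4397720, chr15:72851989-72852038, chr2:132712129-132712178, chr6:13691916-13691965 and chr1:82200124-82200173.
Col1a2 locus: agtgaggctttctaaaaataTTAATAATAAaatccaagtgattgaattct
Trappc9 locus: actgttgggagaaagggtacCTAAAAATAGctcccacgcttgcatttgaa
Shld1 locus: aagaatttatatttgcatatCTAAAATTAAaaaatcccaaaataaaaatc
Bmt2 locus: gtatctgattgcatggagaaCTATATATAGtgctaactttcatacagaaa
Gm9747 locus: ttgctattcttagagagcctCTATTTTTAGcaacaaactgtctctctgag

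An AP-1 site within the 300 bp around the centre was found in 481 of the 1214 peaks more open with BDNF (39.6%) and in 31 of the 814 more open with KCl (3.81%), against 11.2% of all peaks tested. The MEF2 motif showed the opposite order, with 3.38% of the BDNF set, 12.5% of the KCl set (102 peaks) and 4.58% of all. The RFX motif (GTTGCCATG) was found in 1.15% and 4.55% against 1.79% of all peaks, and the homeobox core (TAATTA) in 10.6% and 16.1% against 12.6%. The POU motif (ATGCAAAT) was found in 4.78% and 6.88% against 4.23%. Motifs for CTCF, which marks insulators, were fewer in both sets (1.07% and 0.614%) than in all peaks (3.81%). The CRE (TGACGTCA) was about as frequent in both sets (1.15% and 1.35%) as in all peaks (0.999%), and so was the E-box of NEUROD factors (CAGATG; 27.1%, 26.0% and 25.2%). Both strands were searched for 17 motifs in windows of equal length, and AP-1 and MEF2 sites stood in 1 window in 20 and 7 peaks of the 2 sets. A match says that the letters are present, not that a factor was bound.

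**Figure D1:**
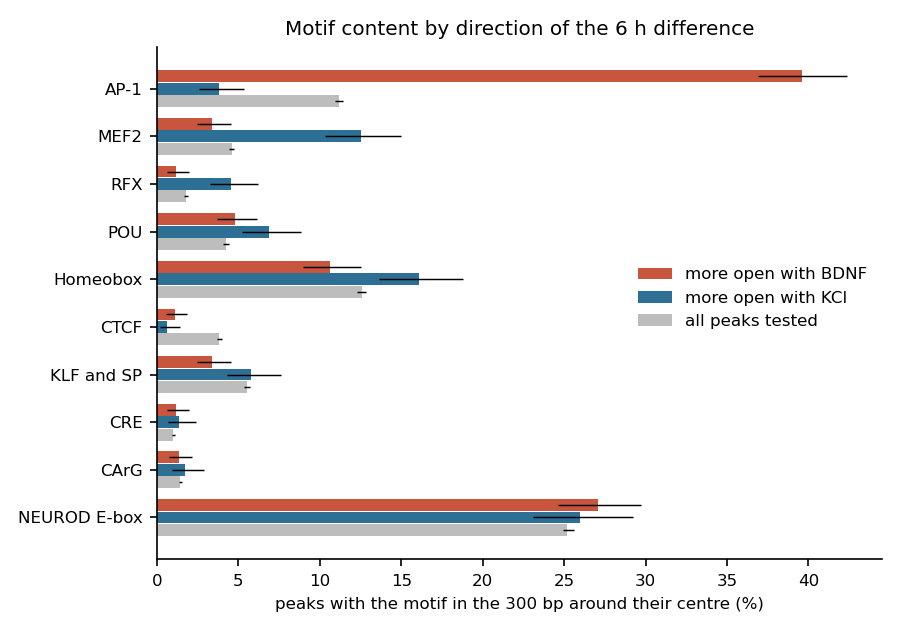
Share of peaks (%) with each of 10 motifs in the 300 bp around the peak centre, for peaks more open with BDNF at 6 h (red), more open with KCl at 6 h (blue) and all peaks tested (grey); lines are exact 95% binomial intervals, which cover counting error only. AP-1 stands at 39.6% in the BDNF set and 3.81% in the KCl set, and MEF2 at 3.38% and 12.5%.

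Read from the motif's side, the 6293 tested peaks with an AP-1 site had a median log2 fold change of 0.335 between the stimuli, and 7.64% of them were called more open with BDNF and 0.493% more open with KCl. Over the controls their median was 0.932 with BDNF and 0.588 with KCl, so they rose with both stimuli. The 2580 peaks with a MEF2 site had a median of -0.161, with 1.59% and 3.95% called, and the 1008 with an RFX site -0.171, with 1.39% and 3.67%. These leanings were not particular to 6 h. At 1 h the medians between the stimuli were 0.804 for AP-1, -0.16 for MEF2 and -0.168 for RFX, and at 10 h 0.225, -0.138 and -0.084. Most peaks with either site were called in neither direction. In the BDNF set the AP-1 site lay a median of 42.5 bp from the peak's centre, against 47.5 bp over all peaks with the site.

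Comparing each stimulus with the 6 controls separated the loci by the way the difference arose. With BDNF at 6 h 4971 peaks gained and 1032 lost accessibility (8.82% and 1.83% of peaks), and with KCl 3149 gained and 1116 lost (5.59% and 1.98%). These comparisons share libraries with the comparison of the stimuli, so they describe the called peaks and are no separate test of them. Of the 1214 peaks more open with BDNF, 743 (61.2%) gained with BDNF and did not close with KCl, 280 (23.1%) closed with KCl and did not gain with BDNF, 10 did both and 181 passed neither test. A further split of the gained peaks showed 112 that gained with both stimuli, more with BDNF. Of the 814 peaks more open with KCl, 344 (42.3%) gained with KCl and did not close with BDNF, 162 (19.9%) closed with BDNF and did not gain with KCl, 7 did both and 301 passed neither test. None of the 814 gained with both stimuli.

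**Figure D2:**
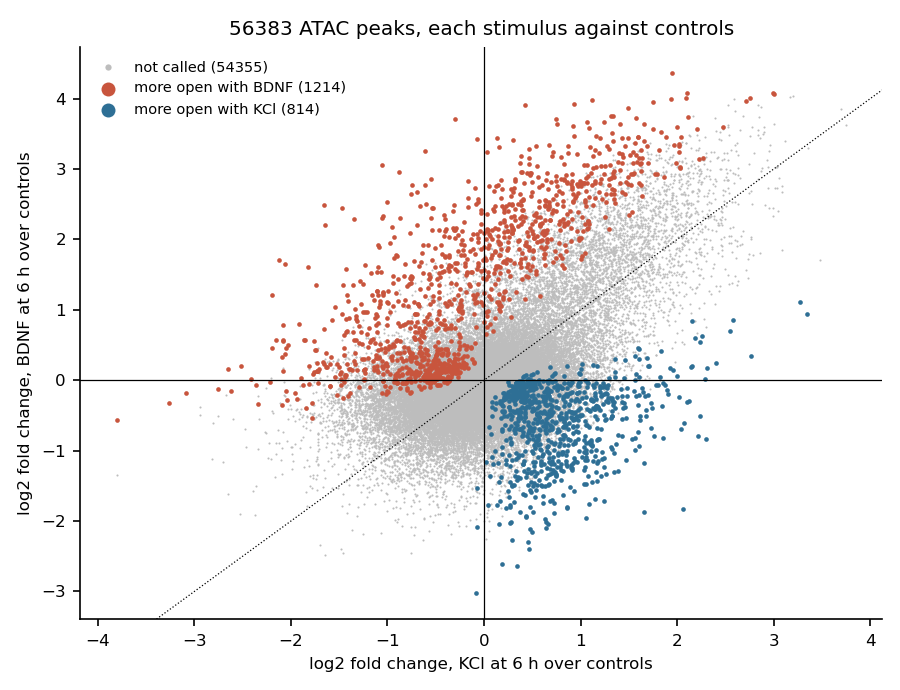
Log2 fold change of each peak with KCl at 6 h over the controls (horizontal axis) and with BDNF at 6 h over the controls (vertical axis), with peaks more open with BDNF in red, more open with KCl in blue and all others in grey; on the dotted line both changes are equal. The red points form a cloud that rises with BDNF (743 peaks) and a compact cloud left of 0 that closes with KCl (280 peaks), and the blue points lie right of 0, mostly below the horizontal line.

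The 2 main groups within the BDNF set had different make-up. An AP-1 site was present in 460 of the 743 gained peaks (61.9%) and in 6 of the 280 that closed with KCl (2.14%). Promoters, taken as 1000 bp before to 100 bp after a start site, made up 58 of the 743 (7.81%) and 158 of the 280 (56.4%), against 27.1% of all peaks. The gained peaks had a median GC content of 44.7% and a median control level of 9.82 scaled counts, while those that closed with KCl had 56.7% GC and a control level of 98.9, and all peaks tested had 48.7% and 28.1. A locus with few counts in the controls passed the filter on the mean count only where stimulated libraries were higher. At the 112 peaks gained with both stimuli the share with AP-1 was 89.3%. The folds were unequal as well, with a median log2 fold change between the stimuli of 1.77 in the gained group and 0.89 in the other. Only a large fold can be called where counts are few, and closing can be seen only from a higher level. The calling thus sets part of these contrasts in fold and level.

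Within the KCl set the MEF2 motif was found in 58 of the 344 peaks gained with KCl (16.9%) and in 14 of the 162 closed with BDNF (8.64%). AP-1 sites were rare in both groups (6.69% and 1.85%). Promoters made up 30.2% of the peaks gained with KCl and 14.2% of those closed with BDNF. Peaks closed with BDNF had the larger difference between the stimuli, a median log2 fold change of -1.76 against -1.21. Their median control level was 24.3 scaled counts against 35.2, and the calling limits this contrast too.

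With each of the 4 libraries left out in turn, 181 to 315 of the 743 gained peaks, 60 to 112 of the 280 closing peaks, 77 to 142 of the 344 gained with KCl and 23 to 55 of the 162 closed with BDNF were still called. The promoter share of the whole sets depended on how libraries were scaled. It was 24.0% of the BDNF set and 24.4% of the KCl set with the LOESS correction, against 45.7% and 14.0% with TMM factors, which also lowered the AP-1 share of the BDNF set to 28.2%. Most called peaks lay outside promoters, in introns (35.3% and 29.7%, against 33.2% of all peaks) or between genes (36.0% and 41.8%, against 35.0%). Peaks more open with KCl lay a median of 51.2 kb from the nearest start of a coding gene, compared with 27.8 kb for the BDNF set and 28.4 kb for all peaks.

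**Figure D3:**
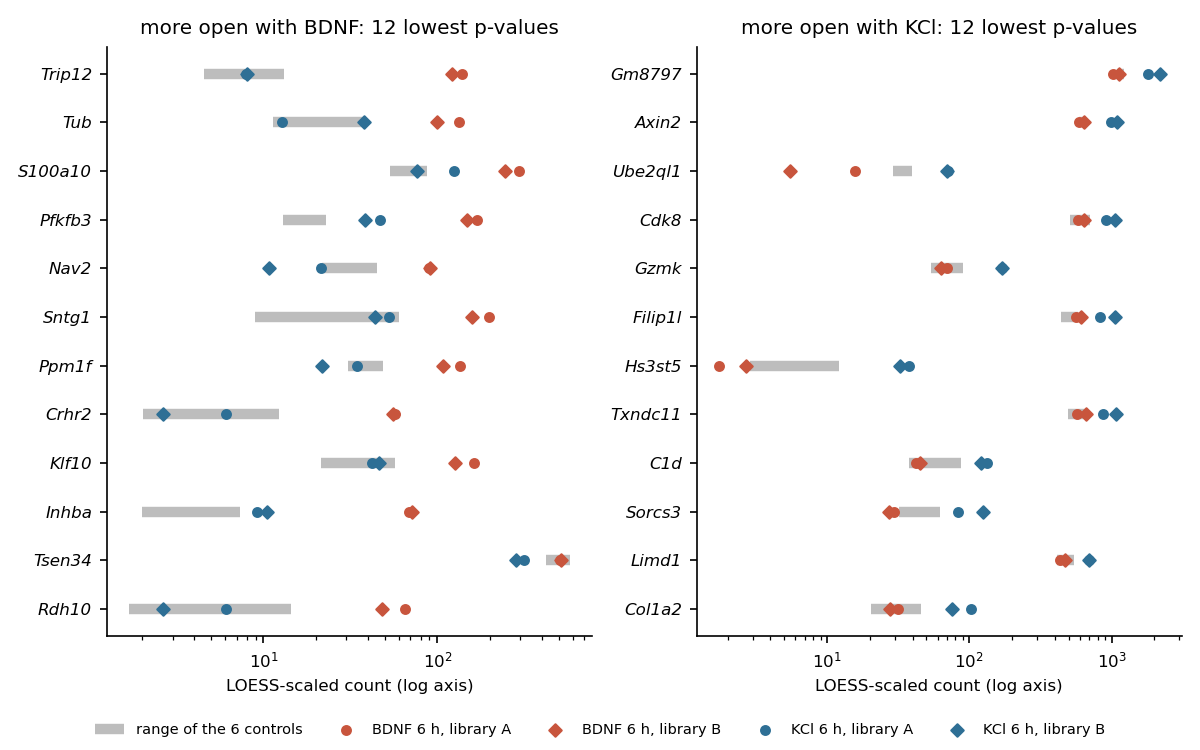
LOESS-scaled counts (log axis) of the 12 peaks of lowest p in each direction, named by the nearest coding gene, with both libraries of BDNF 6 h (red) and KCl 6 h (blue) and the range of the 6 controls (grey bar). In the left panel the red points lie right of the grey bars at 11 peaks and inside the bar at Tsen34, and in the right panel the blue points lie right of the bars at all 12.

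Among the 12 BDNF loci of lowest p, 11 were above all controls with BDNF. Tub, named for a mouse obesity mutant, had an intronic peak with scaled counts of 133 and 100 with BDNF, 12.7 and 37.8 with KCl and 11.3 to 37.1 in the controls (log2 fold change 2.53 ± 0.36, adjusted p = 1.1e-06). A peak 71.9 kb downstream of the start of Pfkfb3, which encodes a regulator of glycolysis, had 168 and 147 with BDNF, 46.7 and 38.2 with KCl and 12.9 to 22.8 in the controls (1.83 ± 0.28, adjusted p = 9.77e-06). At this peak both stimuli were above every control and BDNF was higher, whereas at Tub KCl library A lay among the controls and library B just above them. The peak 36.7 kb downstream of the start of S100a10, which encodes the annexin partner p11, had 295 and 244 with BDNF, 125 and 76.3 with KCl and 53.6 to 86.9 in the controls (1.3 ± 0.20, adjusted p = 6.8e-06). Its KCl libraries fell on either side of the highest control, and its sequence has 1 near-identical copy elsewhere in the genome, so its counts are less certain.

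The peak far upstream of Inhba, the gene for the activin A subunit, had 69.0 and 71.1 with BDNF, 9.17 and 10.5 with KCl and 2.01 to 7.30 in the controls (2.86 ± 0.46, adjusted p = 2.92e-05). It lies 233.9 kb from the start of Inhba and held none of the 17 motifs, and the RNA of Inhba was higher with KCl (-0.74 ± 0.23, adjusted p = 0.00968). The peak 83.9 kb upstream of Klf10, a zinc finger factor of the TGF-beta early response, had 163 and 127 with BDNF, 41.9 and 46.4 with KCl and 21.3 to 57.4 in the controls (1.73 ± 0.28, adjusted p = 2.92e-05). Here the KCl libraries stayed inside the range of the controls, and the peak lies at the start of another transcript. Klf10 RNA was higher with BDNF, at 769.3 and 722.8 normalised counts against 105.2 and 138.9 (2.61 ± 0.11, adjusted p = 2.37e-13).

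Other BDNF loci of this group lay near Nav2, a guidance protein of growing axons (2.3 ± 0.36, with 89.3 and 91.2 against 21.3 and 10.8), and near Crhr2, a receptor for corticotropin-releasing hormone family peptides (3.41 ± 0.55, with 57.1 and 55.2 against 6.08 and 2.63). The RNA of Nav2 was lower with BDNF (-0.61 ± 0.10) and that of Crhr2 higher (1.33 ± 0.46), so the sign of the peak and that of the nearest gene did not always match. The remaining loci, near Sntg1, Ppm1f and Rdh10, had log2 fold changes of 1.83 to 3.40. Raw counts in KCl libraries A and B were 8 and 1 at both Crhr2 and Rdh10, so these folds rest on few reads. Tsen34, a subunit of the tRNA splicing endonuclease, was the only one of the 12 named genes with the peak at its own start. That peak, shared with Mboat7, had 507 and 515 with BDNF, 313 and 284 with KCl and 422 to 578 in the controls (0.76 ± 0.13, adjusted p = 3.9e-05). There the BDNF libraries lay among the controls and both KCl libraries lay below them all, the pattern of the closing group.

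Among the KCl loci of lowest p, the peak 19.3 kb upstream of Ube2ql1, a ubiquitin-conjugating enzyme of the brain, moved both ways: 70.9 and 69.7 with KCl, 28.9 to 39.3 in the controls and 15.7 and 5.47 with BDNF (-2.84 ± 0.40, adjusted p = 6.13e-07). Both tests against the controls passed here, with 1.09 ± 0.28 for KCl and -1.76 ± 0.36 for BDNF. Ube2ql1 RNA was higher with KCl as well (-0.57 ± 0.10). The promoter of Gzmk, a granzyme of cytotoxic lymphocytes, had 169 in both KCl libraries, 69.6 and 62.8 with BDNF and 53.8 to 90.6 in the controls (-1.36 ± 0.22, adjusted p = 3.9e-05). Its RNA was under 10 normalised counts in all 4 libraries and was not tested. The MEF2-bearing peak upstream of Col1a2 had 103 and 75.6 with KCl, 31.4 and 27.9 with BDNF and 20.3 to 45.5 in the controls (-1.65 ± 0.31, adjusted p = 0.000455). The peaks near C1d, a cofactor of RNA processing, and Sorcs3, a sorting receptor of neurons, had log2 fold changes of -1.55 and -1.81 with both KCl libraries above every control. RNA did not follow the peak at all KCl loci of lowest p. It was higher with BDNF for Sorcs3 (0.97 ± 0.14), Filip1l (0.71 ± 0.21), Col1a2 (0.23 ± 0.10) and Cdk8 (0.20 ± 0.09).

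A different kind of locus made up the other 6 of these 12. The peaks near Gm8797, Axin2, Cdk8, Filip1l, Txndc11 and Limd1 had high scaled counts in the 4 libraries, 437 to 2190, and small folds of 1.53 to 1.84 in favour of KCl. At each of them both KCl libraries lay above all 6 controls and the BDNF libraries lay near the controls. Near-identical sequence was found elsewhere in the genome for 4 of the 6: 15 copies for Gm8797, 17 for Filip1l, 6 for Txndc11 and 2 for Limd1. The 2 peaks of highest count in the whole table also favoured KCl and were of this kind. One, chr1:24608827-24618793, holds a stretch of 4654 bp that matches the mitochondrial genome at 99.9% identity, and the other, chr17:39843020-39848781, holds the 18S ribosomal RNA pseudogene Rn18s-rs5. The first took 1.38% and 1.62% of the raw counts with BDNF and 1.79% and 1.92% with KCl, and the second 0.759% and 0.791% against 1.03% and 1.18%. Their log2 fold changes were -0.83 ± 0.17 and -1.0 ± 0.18 with the LOESS correction and -0.27 and -0.47 with TMM factors, and the first was not called with TMM (adjusted p = 0.46). These 2 peaks were named after their values were seen. In all, 62 of the 1214 peaks (5.11%) and 30 of the 814 (3.69%) have near-identical sequence elsewhere, and the shares with AP-1 in the BDNF set (40.2%) and with MEF2 in the KCl set (13.0%) changed little without them.

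The same 2 stimuli were compared at 1 h and 10 h in other libraries. At 1 h 5264 peaks (9.34% of those tested) were more open with BDNF and 3104 (5.51%) with KCl, and at 10 h 676 (1.2%) and 462 (0.819%). Of the BDNF set of 6 h, 804 peaks (66.2%) were called the same way at 1 h, which is 15.3% of the 1 h list, and 244 (20.1%) at 10 h, 36.1% of the 10 h list. Of the KCl set, 227 (27.9%) were called the same way at 1 h, 7.31% of that list, and 101 (12.4%) at 10 h, 21.9% of that list. Calls at all 3 times numbered 211 in the BDNF set and 50 in the KCl set, and calls at 6 h alone 377 and 536. Opposite calls were few, 3 and 4 at 1 h and none at 10 h by edgeR.

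**Figure D4:**
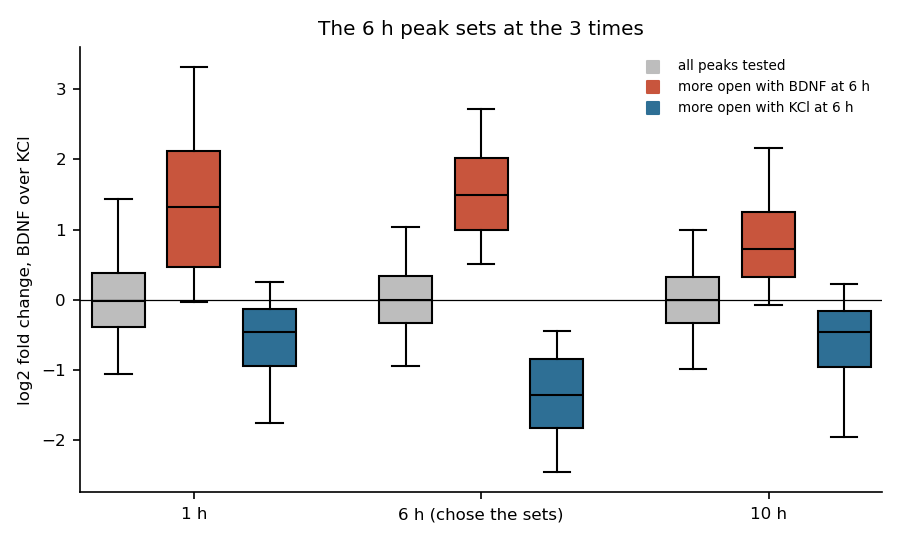
Log2 fold change of BDNF over KCl at 1 h, 6 h and 10 h for all peaks tested (grey), the 1214 peaks more open with BDNF at 6 h (red) and the 814 more open with KCl at 6 h (blue); boxes span the quartiles, the line is the median and whiskers reach from the 5th to the 95th percentile. The medians of the BDNF set are 1.32, 1.50 and 0.72 and those of the KCl set -0.47, -1.36 and -0.46, with the 6 h values fixed by the choice of the sets.

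The sign of the difference was shared more widely than the calls. With BDNF, 1143 of the 1214 peaks (94.2%) had a positive log2 fold change at 1 h and 1133 (93.3%) at 10 h. With KCl, 712 of 814 (87.5%) were negative at 1 h and 711 (87.3%) at 10 h, against 51.3% and 50.6% of all peaks tested. The Trip12 locus gave 4.02 ± 0.34 at 1 h and 2.27 ± 0.33 at 10 h, and the Tub locus 2.84 ± 0.31 and 2.26 ± 0.34. The Hs3st5 locus gave -1.12 ± 0.69 at 1 h, which did not pass the test, and -4.10 ± 0.78 at 10 h. A test of the change between times called 48 of the 56383 peaks for 6 h against 1 h, 6 of them in the BDNF set and 2 in the KCl set, with 4884 at an unadjusted p below 0.05. For 6 h against 10 h edgeR called 0, with 3004 at an unadjusted p below 0.05. A call at 6 h and none at another time is thus not shown to be a change between the times for nearly all peaks.

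Called peaks spread over many genes. The nearest coding start within 100 kb belonged to 843 genes for the BDNF set and 483 for the KCl set, with 37 genes in both. Of the BDNF set 74.7% lay within that distance and of the KCl set 62.2%, against 73.3% of all peaks. Schip1, a binding partner of the NF2 protein schwannomin, had the most called BDNF peaks, 4 of 25 tested, with log2 fold changes of 1.24 to 2.91. Of the 55 genes with at least 2, Nav2, Jcad, Trabd2b, Epc1, Tars, Apba2 and Otud7a came next with 3 each. All 3 peaks near Trabd2b, a WNT-cleaving protease, held an AP-1 site. Anks1b, a postsynaptic scaffold gene, had the most KCl peaks, 3 of 17 and all in its introns, with folds of 1.34 to 1.57 on the log2 scale in favour of KCl. Of the 22 genes with at least 2 called KCl peaks, Jarid2, Pax3, Map3k1, Zbtb20, Kcnd3, Kcnc2 and Tiparp came next by p with 2 each. Anks1b, Zbtb20, Tiparp and Jcad each also had 1 peak called the other way. With TMM factors neither KCl peak of Zbtb20 was called (-0.02 and -1.89), nor 1 of the 4 of Schip1. Of these 16 genes, the RNA of Otud7a showed the largest difference (1.37 ± 0.21, adjusted p = 3.04e-05), in the direction of its peaks.

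The genes that respond to the 2 stimuli were then followed in 13 lists, read against the 41353 peaks that lie within 100 kb of a coding start, of which 2.19% were called for BDNF and 1.22% for KCl. For AP-1 family genes 3 of 66 peaks were called for BDNF and 3 for KCl, and the median log2 fold change was 0.03. Both called peaks near Jun were more open with BDNF, the weaker not called with TMM factors (1.18, adjusted p = 0.103, edgeR). The stronger, 53.3 kb upstream, had scaled counts of 151 and 92.9 with BDNF, 48.0 and 38.0 with KCl and 17.3 to 29.3 in the controls (1.42 ± 0.29, adjusted p = 0.00135), so both stimuli were above the controls and BDNF above KCl. Both called peaks near Fos were more open with KCl. The one 18.4 kb upstream had 420 and 399 with KCl, 267 and 332 with BDNF and 289 to 405 in the controls (-0.45 ± 0.13, adjusted p = 0.0409), within or near the controls in all 4, and it was not called with TMM factors (-0.27). The one 37.5 kb upstream had 101 and 92.2 with KCl, 70.5 and 36.3 with BDNF and 36.1 to 57.3 in the controls (-0.92 ± 0.28, edgeR adjusted p = 0.0667). Its KCl libraries were above every control, and it was also called with TMM factors (-0.94). Jun encodes one partner of AP-1 and Fos the other.

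Jun RNA was higher with BDNF (1286 and 1426 against 883.9 and 694.6 normalised counts, 0.79 ± 0.09). Fos RNA was higher with KCl (1727 and 1809 against 125.2 and 105.2, -3.93 ± 0.18). Across the 13 AP-1 family genes with RNA, 2 were higher with BDNF and 10 higher with KCl, beside 29.6% and 27.8% of all 16209 genes tested. Fosb (-5.50 ± 0.27), Fosl2 (-1.68 ± 0.19) and Junb (-0.93 ± 0.16) were among the 10. At 6 h, then, the AP-1 motif was more frequent at loci more open with BDNF, while the RNA of most AP-1 genes was higher with KCl.

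AP-1 sites also stood at loci more open with BDNF near genes of the lists. They are shown at chr4:95105548-95105594, chr3:107442424-107442470 and chr14:23885713-23885759, with the site in capitals.
Jun locus: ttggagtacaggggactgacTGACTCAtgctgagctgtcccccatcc
Kcnc4 locus: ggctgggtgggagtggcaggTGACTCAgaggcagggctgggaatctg
Kcnma1 locus: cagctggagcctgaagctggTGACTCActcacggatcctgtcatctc

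Genes more open with KCl are shown at chr12:98602253-98602302 with a MEF2 site, at chr17:26508588-26508635 with a CRE and at chr19:4990902-4990951 with a CArG box, the site of SRF, in capitals.
Kcnk10 locus: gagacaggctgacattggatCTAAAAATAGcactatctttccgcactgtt
Dusp1 locus: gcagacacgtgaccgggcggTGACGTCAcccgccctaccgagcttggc
Npas4 locus: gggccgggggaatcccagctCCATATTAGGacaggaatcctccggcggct

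Genes of calcium and CREB signalling had 63 peaks nearby, with a median of 0.04. At an unadjusted p below 0.05 by edgeR, 8 were higher with BDNF and 6 with KCl. With TMM factors edgeR called 2 for BDNF and 4 for KCl, DESeq2 called 0 and 2, and limma 1 and 3. With the LOESS correction edgeR called 0 for BDNF and 2 for KCl (3.17%, against 1.22% of all peaks near a coding start). The one 0.6 kb upstream of the start of Npas4, an immediate early gene specific to calcium entry in neurons, had 20.5 and 31.5 with KCl, 7.40 and 4.62 with BDNF and 6.09 to 17.9 in the controls (-2.06 ± 0.60, adjusted p = 0.0456). The KCl libraries were above all controls, although neither test against the controls passed. Raw counts at this peak were 28 and 12 with KCl and 8 and 8 with BDNF. The other lay 88.6 kb from the start of Sik1, a kinase gene induced by CREB (-0.79 ± 0.23, adjusted p = 0.0454). The RNA of this list was mostly higher with KCl, 12 of 14 genes against 1 higher with BDNF, with a median log2 fold change of -2.11. Npas4 had 1908 and 1735 normalised counts with KCl and 64.0 and 65.0 with BDNF. Nr4a1, an orphan nuclear receptor, had 1684 and 1681 with KCl and 58.6 and 74.1 with BDNF, and no peak near it was called. Large differences of RNA stood beside 2 peaks called for KCl and 0 for BDNF.

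The list of MAP kinase feedback genes holds phosphatases and inhibitors of the cascade and also Etv1, Etv4 and Etv5. Near its genes 4 of 71 peaks were called for BDNF and 1 for KCl. A peak 88.8 kb upstream of Spred2 had 335 and 308 with BDNF, 226 and 178 with KCl and 88.0 to 172 in the controls (0.62 ± 0.16, adjusted p = 0.0195), above the controls with both stimuli. The others were a second peak near Spred2 (2.79 ± 0.75), one near Spry2 (2.61 ± 0.77) and one 21 kb upstream of Dusp6 (1.78 ± 0.53), all with under 100 raw counts a library. In KCl libraries A and B their raw counts were 3 and 2, 4 and 1, and 16 and 2, so these folds rest on few reads. The KCl peak was the promoter of Dusp1, which ends MAP kinase signals and carries the CRE shown above (-0.48 ± 0.15, adjusted p = 0.0761), and it was not called with TMM factors (-0.36, adjusted p = 0.207). RNA followed these signs at Dusp6 (1.97 ± 0.14), Spred2 (0.52 ± 0.09) and Dusp1 (-1.67 ± 0.12), but not at Spry2 (-0.21 ± 0.09). Of 20 genes of the list, 11 had higher RNA with BDNF and 7 with KCl. The EGR factors and their Nab corepressors had 21 peaks, 0 of them called by edgeR with the LOESS correction, DESeq2 or limma and 1 called for KCl by edgeR with TMM factors (3 higher with BDNF and 1 with KCl at an unadjusted p below 0.05), although Egr1 (3.48 ± 0.11) and Egr2 (3.96 ± 0.22) RNA was higher with BDNF.

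Potassium channels, which set the resting potential and end the action potential, had the most peaks of the lists, of which 7 of 200 (3.5%) were called for BDNF and 6 (3.0%) for KCl (median -0.02). The peak in an intron of Kcnc4 had 90.1 and 99.7 with BDNF, 26.6 and 16.1 with KCl and 9.22 to 18.8 in the controls (2.02 ± 0.36, adjusted p = 0.000161). The peak in an intron of Kcnq3, a subunit of the M current, had 45.3 and 80.5 with KCl, 9.79 and 17.6 with BDNF and 17.5 to 48.6 in the controls (-2.02 ± 0.39, adjusted p = 0.000524). At Kcnc4 BDNF stood above the controls, and at Kcnq3 the BDNF libraries were at or under the lowest control. RNA had the same sign, at 245.0 and 214.1 against 112.1 and 89.1 for Kcnc4 and at 521.6 and 556.3 against 1428 and 1121 for Kcnq3. The others called for BDNF were near Kcna5, Kcna3, Kcnma1, Kcnh1, Kcnh3 and Kcnb2, and those for KCl near Kcnk10, Kcnc2 and Kcnd3, the latter pair with 2 peaks each.

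For voltage-gated calcium channels 3 of 98 peaks were called for BDNF, 2 of them in introns of Cacna1c, the pore of an L-type channel, and 2 for KCl, in introns of Cacnb2 and Cacna2d3. The stronger Cacna1c peak had 74.9 and 48.9 with BDNF, 16.1 and 7.93 with KCl and 8.30 to 21.1 in the controls (2.15 ± 0.44, adjusted p = 0.00144). The Cacnb2 peak had 53.9 and 71.7 with KCl, 15.6 and 20.0 with BDNF and 13.2 to 19.9 in the controls (-1.75 ± 0.39, adjusted p = 0.00493). Each peak was above the controls with 1 stimulus and close to them with the other. Cacna1c RNA did not pass the test (0.22 ± 0.12), and Cacnb2 RNA was higher with KCl (-0.29 ± 0.13).

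Few peaks of the other lists were called. Neuropeptides and granins had 2 of 65 for BDNF, near Crh and Cpe, and 1 for KCl, near Scg2. Sodium channels had 1 of 24, at the promoter of Scn2a, and glutamate receptors 1 of 94, in Grik1 (-1.92 ± 0.50, with 36.3 and 54.9 with KCl against 10.4 and 12.4). For cortical layer transcription factors 3 of 157 peaks were called for BDNF and 1 for KCl. Pou3f3 had a peak called in each direction, and Mef2c a promoter-like peak 87.0 kb downstream that was more open with BDNF (1.01 ± 0.29) while its RNA was higher with KCl (-1.23 ± 0.09). Synaptic plasticity effectors (49 peaks), neurotrophins and their receptors (36) and GABA receptors (46) had 0 called by edgeR with the LOESS correction or by DESeq2, while limma called 1 peak of the first list for BDNF and 1 of the second for KCl, and edgeR with TMM factors called 1 of the second for KCl and 2 of the third for BDNF. At an unadjusted p below 0.05 1, 3 and 4 of their peaks were higher with BDNF and 3, 1 and 1 with KCl. Arc, of the synaptic list, had higher RNA with BDNF (3.18 ± 0.19) with no called peak near it.

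**Figure D5:**
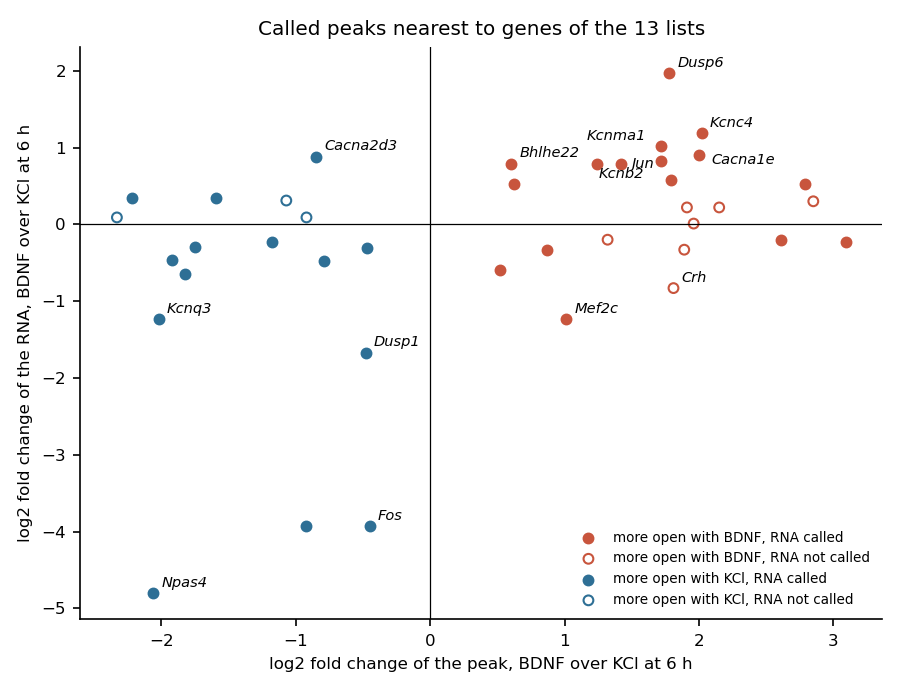
Log2 fold change of BDNF over KCl at 6 h for each called peak near a gene of the 13 lists (horizontal axis) and for the RNA of that gene (vertical axis), red for peaks more open with BDNF and blue for peaks more open with KCl; filled points are genes whose RNA passed the test, and names mark RNA differences above 0.75 in size. Fos, Npas4 and Dusp1 lie low on the left and Dusp6 and Kcnc4 high on the right, while Mef2c and Cacna2d3 lie in the quadrants where peak and RNA differ in sign.

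Over all called peaks the RNA of the nearest gene leaned with the peak on the KCl side. Of 407 genes nearest to a peak more open with KCl and with RNA tested, 159 (39.1%) had higher RNA with KCl and 102 (25.1%) with BDNF, against 29.3% and 31.5% of the 12002 genes nearest to any tested peak. Of 691 genes nearest to a peak more open with BDNF, 229 (33.1%) had higher RNA with BDNF and 193 (27.9%) with KCl, close to those shares. The median RNA log2 fold change was -0.119 for the first group, 0.005 for the second and 0.011 for all. The 232 genes nearest to a BDNF peak with an AP-1 site split evenly (69 against 68), and among the 35 nearest to a KCl peak with a MEF2 site 17 were higher with KCl and 3 with BDNF. The RNA libraries of these groups held 11536208 to 13365788 reads each.

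Markers of cell types were compared as a check of the tissue. In the 4 RNA libraries of 6 h the summed normalised counts of 9 neuron markers were 54670 to 61340, against 118.9 to 208.4 for 6 microglia markers and 250.4 to 630.9 for 5 endothelial markers. Astrocyte markers summed to 11360 to 13430 and interneuron markers to 13870 to 16760. No marker was at 0 in all 4 libraries, and the ranges of the sums with BDNF and KCl overlapped for the neuron, interneuron, astrocyte, microglia and endothelial lists. Single markers still differed. Of 9 neuron markers 1 had higher RNA with BDNF and 4 with KCl, of 7 interneuron markers 3 and 4, and of 6 astrocyte markers 1 and 0. Of the microglia markers 1 was higher with each stimulus, and of the endothelial markers 1 with KCl. The ranges of the sums did not overlap for the oligodendrocyte lineage (5647 and 5767 with BDNF, 6983 and 7351 with KCl) and radial glia (8806 and 9656 against 10100 and 10620). Their markers did not all go that way. Of 7 oligodendrocyte lineage markers 3 had higher RNA with BDNF and 2 with KCl, and of 6 radial glia markers 1 and 2. The part of these cells in the chromatin differences was not tested. Near the 26 and 37 peaks of those 2 lists, edgeR called 0 and 1 for BDNF (0 and 2 at an unadjusted p below 0.05) and 0 for KCl (1 in each list at an unadjusted p below 0.05, and 1 of the first list called with TMM factors).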

How the data were processed

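Groups came from the sample labels. The authors trimmed reads (Trimmomatic), used Bowtie2 to align ATAC reads to mm10, MACS2 to call peaks in each sample and DiffBind to count reads over shared peaks. The deposited ATAC values are counts, whole numbers not yet scaled. The deposited RNA values are a signal, gene counts from TopHat2 alignments divided by size factors by the authors, and 100% of them gave whole reads within 0.01. The authors' tables of fold changes and p-values (a score each) were not used, and 0 sample columns were left out. Peaks were tested with edgeR 4.0.16 (R 4.3.3; quasi-likelihood, LOESS offsets with span 0.3, 18 libraries, 7 levels, mean of at least 10, Benjamini-Hochberg adjusted p below 0.1) and RNA with limma 3.58.1 (trend, robust, log2 of value + 1, mean of at least 10); edgeR on the whole reads called 9378 genes against 9293. RNA fold changes understate those of low genes. Genes were the nearest GENCODE M21 coding start, and copies were found with BLAST 2.17.0 (90% identity over 200 bases). Named were the 12 peaks of lowest p in each direction with separated libraries, the 8 genes with most called peaks, and 2 to 4 peaks a list. Intervals cover counting error only. Members and lists were chosen with earlier results of these data known. Scripts were tested on simulated data. Alternatives were other scalings, tests, filters, thresholds, depths, windows and left-out libraries.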

Additional observations from a re-analysis of the deposited data

Results flagged for a closer look

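In a group of 4 to 10 libraries a value that stands apart by Dixon's criterion is found in about 1 of 20 groups by chance. Among the 6 controls, 1 library stood apart at the Pfkfb3 locus, with 12.9 scaled counts against a median of 21, and 1 at the Klf10 locus, with 57.4 against a median of 27.1. At the peak in an intron of Apba2, an adaptor protein of the presynapse, the difference between the stimuli at 6 h was smaller than at 1 h by a test of the change itself (-2.22 on the log2 scale, edgeR adjusted p = 0.0251).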

How the results depend on the processing

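No paired analysis was possible because the deposited columns do not carry the replicate numbers of the labels. The 2028 peaks called at 6 h (59.9% more open with BDNF) became 1184 with DESeq2, 274 (73.4%) at adjusted p below 0.01, 60 (40.0%) with all libraries thinned to the total of the shallowest, and 395 to 962 with 1 library left out; TMM factors gave 2750 (66.1%), DESeq2 size factors 2863 (68.1%). Thinned, the 5 comparisons of peaks gave 60, 400 (1 h, of 8368), 1 (10 h, of 1138), 465 (BDNF against controls, of 6003) and 61 (KCl against controls, of 4265), so depth limits the calls. At adjusted p below 0.01 the last 4 gave 2910, 135, 3430 and 1241, and with 1 library left out 2782 to 6136, 151 to 692, 3357 to 3974 and 1423 to 2369. At 1 h limma gave 4790, and at 10 h DESeq2 gave 648. For KCl against controls TMM gave 6527, DESeq2 size factors 6834 (58.2% gained, against 73.8%) and limma 6430 (55.4%).

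For the BDNF set the promoter share of 24.0% became 27.6% with wider promoters, 45.7% with TMM, 20.9% at the stricter threshold and 45.8% thinned. The AP-1 share of 39.6% became 33.8% in 200 bp windows, 28.2%, 45.3% and 25% (TMM, stricter, thinned), and the MEF2 share of 3.38% became 2.39%, 2.31% with TMM, 8.33% thinned and 2.36% without the shallow KCl library. Calls shared with 1 h went from 66.2% to 56.9%, 71.1%, 29.2% and 75.3% (TMM, stricter, thinned, without the shallow library), and those with 10 h from 20.1% to 23.8% with TMM, 0.0% thinned and 31.2% without it. For the KCl set the promoter share of 24.4% became 14.0%, 19.2%, 41.7% and 18.1%, in the same order. The AP-1 share of 3.81% became 5.56% thinned and 5.88% without the shallow library, and the MEF2 share of 12.5% became 9.83% in 200 bp windows, 17.8% at the stricter threshold, 8.33% thinned and 18.1% without it. Calls shared with 1 h went from 27.9% to 21.9% at the stricter threshold, 8.33% thinned and 38.0% without it, and with 10 h from 12.4% to 2.78% thinned and 20.4% without it. The causes were not tested. Of the 107 named peaks 67 passed the filter when thinned, where 60 lost their call and one near Otud7a reversed (-0.227); no other setting reversed a named peak. With TMM factors 7 lost theirs, near Fos, Bach2, Jun, Dusp1, Schip1 and Zbtb20 (2). RNA counts stayed within 1.5 times of 9293 in all settings.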

Other observations

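Chromosome X stood apart from the autosomes at 6 h. Of its 1267 peaks, 46 (3.63%) were more open with BDNF and 6 (0.474%) with KCl, against 2.12% and 1.47% of autosomal peaks. The median log2 fold change of the 1267 peaks was 0.215, while the medians of the 19 autosomes lay between -0.083 and 0.055. The same median was 0.196 to 0.265 under 13 other settings, each time above every autosome. At 1 h it was 0.043, against -0.096 to 0.028 on the autosomes, and at 10 h 0.144, against -0.056 to 0.037. Against the controls the chromosome X median was 0.004 with BDNF and -0.194 with KCl at 6 h. Within libraries, the median level of chromosome X relative to the autosomes was -0.159 and -0.23 on the log2 scale in the 2 KCl libraries of 6 h, -0.054 and -0.113 in those of 10 h, and between -0.006 and 0.088 in the other 14. Of the 280 peaks that closed with KCl and did not gain with BDNF, 19 (6.79%) lay on chromosome X, as did 14 of the 743 that gained with BDNF (1.88%), 3 of the 344 that gained with KCl (0.872%) and 2.25% of all peaks tested. In RNA the same comparison had a median of -0.054 over 718 chromosome X genes and 0.004 over 15465 autosomal genes. The 29 peaks of chromosome Y had a median of 0.238. This pattern was found after the values were seen, and its cause was not tested.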
